A study of Homo sapiens with 14 samples.

Results

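Residues 851 to 1200 of CFTR, the second membrane-spanning domain of the channel, were chosen by residue number, with earlier results of these data known. They make up 350 of the 1480 residues in the deposited profiles, or 23.6%. A residue without a line in a library was counted as 0 reads, and reads were scaled to the library's total of CFTR reads. The measurements are ribosome footprints from HEK293, an immortalized line of human embryonic kidney cells, in which a CFTR construct was overexpressed. All 14 libraries fall into 4 groups that differ in synonymous codons and encode the same protein. WT (n = 5) is the wild-type sequence. High-abc (n = 5) carries replaced codons whose list the labels do not give. In High-Leu558 (n = 2) Leu558 is encoded by CUC in place of UUA, and its label names no other change. In WT-Leu558-within-High-abc (n = 2) the native Leu558 codon stands within the High-abc sequence. Leu558 lies upstream of the domain, in the first nucleotide-binding domain. The genomic CFTR locus spans 117480025 to 117668665 of chromosome 7 in GRCh38.p14. Since the reads come from introduced constructs, every position here is a residue number.

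CFTR is a chloride and bicarbonate channel of epithelia and a member of the ABC transporter family, whose loss of function causes cystic fibrosis. It holds a pair of membrane-spanning domains, each of 6 helices, a pair of nucleotide-binding domains that bind ATP, and a regulatory domain. The second membrane-spanning domain follows the regulatory domain and is made and inserted into the membrane of the endoplasmic reticulum while the ribosome translates it. Its extracellular loop between helices 7 and 8 carries the N-linked glycans by which the maturation of CFTR is followed. Its cytosolic loops reach down to the nucleotide-binding domains, and the fourth of them contacts the first nucleotide-binding domain. In ribosome profiling, nuclease removes the mRNA outside ribosomes, so the number of reads at a residue measures how often ribosomes were found there, and a codon passed slowly collects more reads.

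Libraries held between 2463 (High-abc replicate 3) and 32630 (WT replicate 2) CFTR reads, with a median of 6374. Of these, 586 to 8061 lay in the domain, or 1.67 to 23.0 reads per domain residue. Between 185 and 322 of the 350 domain residues were read at least once in a library, and 74 had a read in every library. For a residue with a count of 0, the upper limit of its share is 0.122% in the library with the fewest reads and 0.00919% in that with the most (3 reads of the total, counting error only). The labels do not say whether replicates are separate cultures, and the p-values below therefore describe no more than the differences among these libraries, which may be technical.

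The domain held 23.2% ± 1.93 of CFTR reads (SD, n = 14), on 23.6% of the residues, and no difference between constructs exceeded the spread of libraries in a test. In WT the domain held 26.3%, 24.7%, 22.9%, 22.3% and 21.9% of CFTR reads in replicates 1 to 5, a mean of 23.6% ± 1.84 (SD, n = 5). In High-abc it held 26.6%, 24.2%, 23.8%, 23.0% and 20.8%, a mean of 23.7% ± 2.10 (SD, n = 5). The groups of 5 covered nearly the same range, and same-numbered WT and High-abc libraries differed by 1.13 percentage points at most. In High-Leu558 the domain held 24.5% and 21.6% of reads, the former within the range of WT and the latter just below its lowest library. In WT-Leu558-within-High-abc it held 21.4% and 20.4%, a mean of 20.9% ± 0.703 (SD, n = 2), below all 5 WT libraries but not below all 5 High-abc libraries.

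Exact two-sided permutation tests of the group means gave a difference of 0.0636 percentage points between High-abc and WT (p = 0.968, 90% interval -2.12 to 2.41). The test did not pair same-numbered libraries, whose differences (High-abc minus WT) were 0.318, -0.531, 0.898, 0.766 and -1.13 points in replicates 1 to 5. High-Leu558 differed from WT by -0.577 points (exact permutation p = 0.667, 90% interval -4.13 to 2.59). WT-Leu558-within-High-abc differed from High-abc by -2.77 points (exact permutation p = 0.190, 90% interval -6.18 to 0.783). It differed from WT by -2.70 points (exact permutation p = 0.0952, 90% interval -5.86 to -0.424), where groups of 5 and 2 can give a p no smaller than 0.0476. Adjusted over the 4 comparisons, these last p-values were both 0.381. Taken over both backgrounds, the native minus the replaced Leu558 codon gave a difference of -1.09 points (exact permutation p = 0.365). It was 0.577 with the WT sequence around it and -2.77 with that of High-abc, so its sign was not shared, and the difference between backgrounds was not tested.

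**Figure D1:**
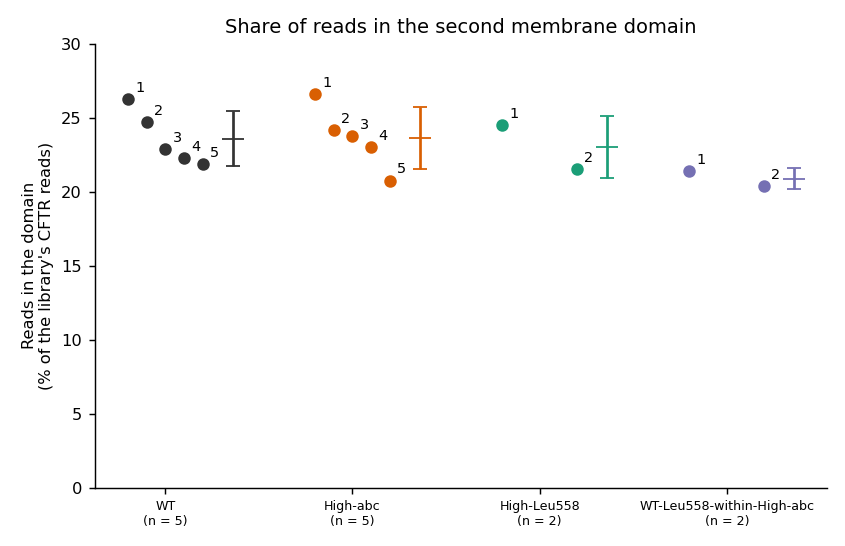
Share of each library's CFTR reads at residues 851 to 1200, in percent, by construct. Points are libraries with their replicate numbers, and bars give the group mean ± SD; both WT-Leu558-within-High-abc libraries (21.4% and 20.4%) lie below all WT and High-Leu558 libraries, and the other pairs of groups overlap.

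Within a library, the domain held 0.974 times as many reads per residue as the remaining 1090 residues without the ends (mean log2 ratio -0.04, exact sign-flip permutation p = 0.375, n = 14), and it was denser than the rest in 6 libraries and less dense in 8. Against the first membrane-spanning domain, taken as residues 41 to 390 to match its length, the density was 0.887 times as high (mean log2 ratio -0.17, exact sign-flip permutation p = 0.00818, n = 14). The domain was the less dense of the pair in 11 of 14 libraries. The 3 exceptions were WT replicate 1, with a density ratio of 1.05, High-abc replicate 1, with 1.04, and High-abc replicate 3, with 1.14. The sign-flip test takes the 14 libraries as independent. Same-numbered WT and High-abc libraries deviated together, as described below, so its p-values may be too small.

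Reads were uneven along the domain in all 4 constructs in a like way. They were sparse over the first helix pair and the glycosylated loop. The mean was higher over the cytosolic loops, where single peaks at residues 948 and 1075 raised it. Occupancy below is reads per residue divided by the library's mean over all 1480 residues, so that 1 is an average residue. The domain was divided into 8 segments at multiples of 10 residues, which only approximate the helices and loops they are named after. Helix 7 with the end of the linker before it (residues 851 to 880) was the emptiest, with an occupancy of 0.521 ± 0.106 (SD, n = 14), and every library lay below 1. The glycosylated loop (881 to 920) had 0.683 ± 0.107, again below 1 in all 14 libraries. Helix 8 (921 to 940) had 0.771 ± 0.209, and of the 14 libraries only High-abc replicate 1 was above 1, at 1.13.

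Residues 851 to 940 together had an occupancy of 0.649 ± 0.0908 (SD, n = 14), between 0.497 and 0.774, and held 17.1% of the domain's reads on 25.7% of its residues. From residue 941 on the occupancy was 1.09 ± 0.108 and ranged from 0.971 to 1.25. No library of the first stretch reached the lowest library of the second, so the step in mean occupancy was present in every construct. The second stretch includes the peaks at residues 948, 1075 and 1011. They held 1.74%, 1.11% and 1.01% of CFTR reads, where the stretch held 19.2% (means, n = 14). The step without these residues was not tested.

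The fourth cytosolic loop (1041 to 1100), between helices 10 and 11, had the highest occupancy, 1.24 ± 0.180 (SD, n = 14), and was above 1 in all 14 libraries. The third cytosolic loop (941 to 990), between helices 8 and 9, had 1.19 ± 0.172 and was above 1 in 13 libraries. In residues 941 to 990, residue 948 alone held 1.74% of CFTR reads, where the whole segment held 4.02% (means, n = 14). The windows of 10 residues of this segment held 2.05%, 0.572%, 0.520%, 0.255% and 0.621% in turn, the highest being that with residue 948. The level of this segment thus rested largely on residue 948, and its occupancy without that residue was not tested. Helices 9 and 10 (991 to 1040) had 1.10 ± 0.240 and lay above 1 in 7 libraries and below 1 in 7. Helices 11 and 12 (1101 to 1150), which line part of the pore, had 1.03 ± 0.111. The stretch after helix 12 (1151 to 1200), which leads to the second nucleotide-binding domain, had 0.883 ± 0.204 and was below 1 in 12 libraries. Among neighbours in this order, the SDs of the 5 segments from residue 941 on overlapped.

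**Figure D2:**
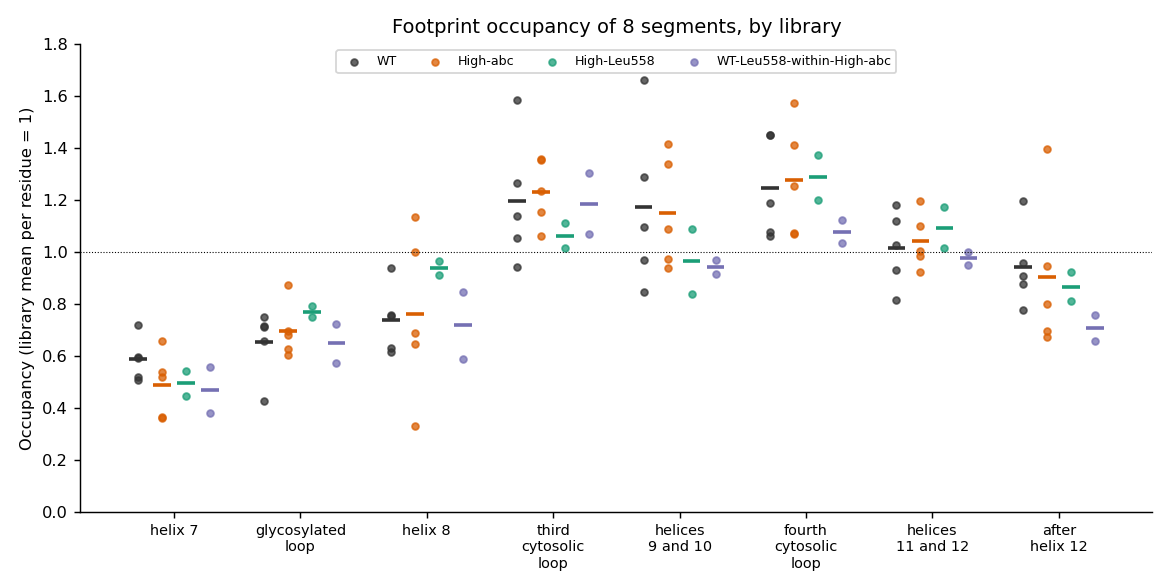
Occupancy of 8 segments of the domain by library, as reads per residue relative to the library's mean over the protein (dotted line at 1). Points are libraries, coloured by construct, and short bars are group means; helix 7 and the glycosylated loop lie below 1 in all 14 libraries and the fourth cytosolic loop above 1 in all 14.

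None of the 8 segments differed between constructs after Benjamini-Hochberg adjustment over the segments, and none had an unadjusted p under 0.05 in an exact two-sided permutation test. Between High-abc and WT, where groups of 5 can give a p as low as 0.00794, the lowest p belonged to helix 7. Its share of CFTR reads was 1.19% ± 0.171 in WT and 0.988% ± 0.256 in High-abc (exact permutation p = 0.190, adjusted p = 0.897, n = 5 each). In High-Leu558 against WT it belonged to helix 8, with 1.27% ± 0.0519 against 0.997% ± 0.176 (exact permutation p = 0.143, adjusted p = 0.707, n = 2 and 5). In the 3 comparisons with a group of 2 the smallest p that 5 against 2 libraries can give is 0.0476.

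In WT-Leu558-within-High-abc all 8 segment means were below those of WT and of High-abc, and none passed the test. The stretch after helix 12 held 2.39% ± 0.242 of reads there (n = 2) against 3.19% ± 0.529 in WT, with no overlap between libraries (exact permutation p = 0.143, adjusted p = 0.857). Helices 9 and 10 held 3.18% ± 0.129 (n = 2) against 3.89% ± 0.728 in High-abc (exact permutation p = 0.190, adjusted p = 0.952). That difference of -0.707 points became -0.108 when the most covered 1% of residues, which include residue 1011, was left out.

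A small number of residues carried much of the signal. Averaged over the 4 groups, 4 residues of the domain had an occupancy of at least 5, 29 of at least 2, and 89 of less than 0.25. The median residue had 0.546. In a region of the same length in the first membrane-spanning domain, 15 residues reached 5 and 48 reached 2. Yet 50% of the reads lay on a similar number of residues in both, 44 in the second domain and 42 in the first.

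The 12 most occupied residues were 948, 1075, 1011, 1141, 1005, 1126, 1121, 1172, 1084, 1064, 926 and 1135, in that order, and were chosen for their level, so the levels are a description with no test. Residue 926 lies in helix 8, 948 in the third cytosolic loop, 1005 and 1011 in helices 9 and 10, and 1064, 1075 and 1084 in the fourth cytosolic loop. Residues 1121, 1126, 1135 and 1141 lie in helices 11 and 12, and 1172 in the stretch after helix 12. None lies in helix 7 or the glycosylated loop. Residues 948, 1075 and 1011 rank 2, 4 and 7 by occupancy among all 1480 residues, ends included, and the fourth, 1141, ranks 34. These 3 residues held 16.5% ± 5.62 of the domain's reads (SD, n = 14), from 11.0% to 29.6%, and the 12 together held 28.4% ± 5.33.

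**Figure D3:**
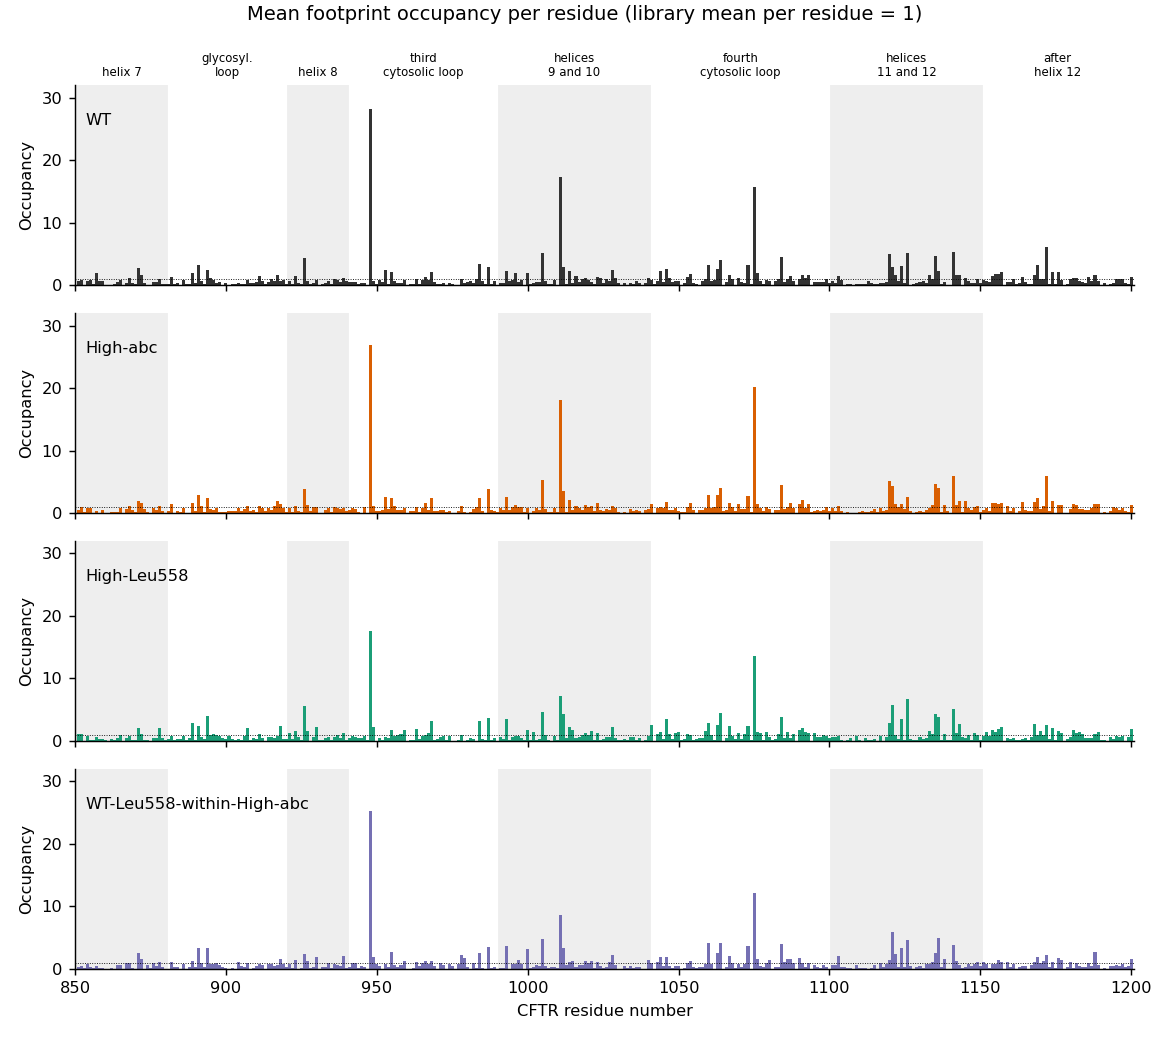
Mean occupancy at each residue from 851 to 1200 in the 4 constructs (group means, library mean per residue = 1), with the 8 segments shaded in turn. Residues 948 and 1075 have the tallest bars in the panels of the groups of 2, and residues 948, 1011 and 1075 in those of the groups of 5. Residue 1011 reaches 17.3 and 18.2 in the groups of 5, and 7.13 and 8.67 in High-Leu558 and WT-Leu558-within-High-abc.

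Residue 948, in the third cytosolic loop, was the most occupied residue of the domain in the mean, at 24.5 times an average residue. In WT it held 1.32%, 2.93%, 2.61%, 1.24% and 1.42% of CFTR reads in replicates 1 to 5. In High-abc it held 1.26%, 2.19%, 2.60%, 1.23% and 1.79%. High-Leu558 had 1.02% and 1.36%, and WT-Leu558-within-High-abc had 1.54% and 1.88%, so each group of 2 overlapped both groups of 5. Replicates 2 and 3 were the highest in both groups of 5. The peak was sharp: residue 948 held 88.4% of the reads at residues 945 to 951 on average, between 80.1% and 96.2%. Over all libraries residue 947 had 6 reads, residue 948 had 2474, and residue 949 had 127.

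Residue 1075, in the fourth cytosolic loop, had an occupancy of 15.4. Its share was 1.39%, 1.88%, 0.529%, 0.897% and 0.617% for the WT libraries, and 1.69%, 2.45%, 0.812%, 1.07% and 0.769% in High-abc, replicates 1 to 5. It was 0.969% and 0.876% in High-Leu558 and 0.992% and 0.651% in WT-Leu558-within-High-abc. Replicates 1 and 2 were the highest in each group of 5, and all groups overlapped. Over all libraries it had 1656 reads, the residue before it 15 and the residue after it 123, and it held 69.8% of the reads in its window of 7 residues.

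Residue 1011, in the segment of helices 9 and 10, had an occupancy of 12.8 and varied most among the 3, by 10.2 times between the lowest and the highest library. Its share was 1.82%, 1.89%, 1.10%, 0.449% and 0.599% for the WT libraries, and 1.42%, 2.52%, 0.853%, 0.725% and 0.619% in High-abc. It was 0.717% and 0.246% in High-Leu558 and 0.418% and 0.753% in WT-Leu558-within-High-abc. Replicates 1 to 3 exceeded replicates 4 and 5 in each group of 5, and the groups of 2, between 0.246% and 0.753%, lay near or below replicates 4 and 5.

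Of the remaining 9, residue 1141 in helices 11 and 12 held 0.355% ± 0.138 in WT, 0.402% ± 0.10 in High-abc, 0.348% ± 0.311 in High-Leu558 and 0.254% ± 0.175 in WT-Leu558-within-High-abc. Residue 1005 varied least of the 12, by 2.70 times between the lowest and the highest library, with group means from 0.316% to 0.357%. Residue 1126 ranged from 0% in 1 High-abc library to 0.668% in WT. Residue 1172, in the stretch after helix 12, held 0.520%, 0.763%, 0.567%, 0.0518% and 0.154% for the WT libraries, and 0.721%, 0.428%, 0.609%, 0.0930% and 0.170% in High-abc. It held 0.158% and 0.187% in High-Leu558 and 0.149% and 0.159% in WT-Leu558-within-High-abc. Replicates 1 to 3 of the groups of 5 were thus all above the other 8 libraries, which lay between 0.0518% and 0.187%, whatever the construct.

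The division of reads between neighbouring residues also differed between libraries at 3 pairs, which were noticed in the data and are given with no test. At residues 1120 and 1121, in helices 11 and 12, residue 1121 took 0%, 17.5%, 62.5%, 78.9% and 65.7% of the pair's reads in WT replicates 1 to 5 and 15.9%, 15.6%, 80.0%, 69.4% and 77.0% in High-abc. It took 55.1% and 75% in High-Leu558 and 69.4% and 87.5% in WT-Leu558-within-High-abc. Replicates 1 and 2 of the groups of 5 were low and the other 10 libraries were between 55.1% and 87.5%. The pair's summed share of CFTR reads was alike in WT (0.532% ± 0.204), High-abc (0.633% ± 0.186), High-Leu558 (0.583% ± 0.178) and WT-Leu558-within-High-abc (0.496% ± 0.118).

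Residues 1135 and 1136, in helix 12, were a further such pair. Residue 1136 took 4.55%, 17.7%, 25%, 74.1% and 45.8% of the pair's reads for WT, and 10.0%, 31.3%, 66.7%, 67.2% and 65.0% in High-abc. It took 47.4% and 48.3% in High-Leu558 and 57.3% and 75.7% in WT-Leu558-within-High-abc. At residues 1011 and 1012 the part of residue 1012 was 3.67%, 11.1%, 31.0%, 27.8% and 2.78% for WT, and 8.14%, 8.13%, 27.6%, 29.1% and 27.9% in High-abc. It was 30.6% and 51.0% in High-Leu558 and 36.5% and 21.2% in WT-Leu558-within-High-abc. At all 3 pairs replicates 1 and 2 of WT and of High-abc lay below replicates 3 and 4 of the same group. Replicate 5 was low in WT at residue 1012 only. The labels do not say what replicate numbers share, and the cause was not tested.

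**Figure D4:**
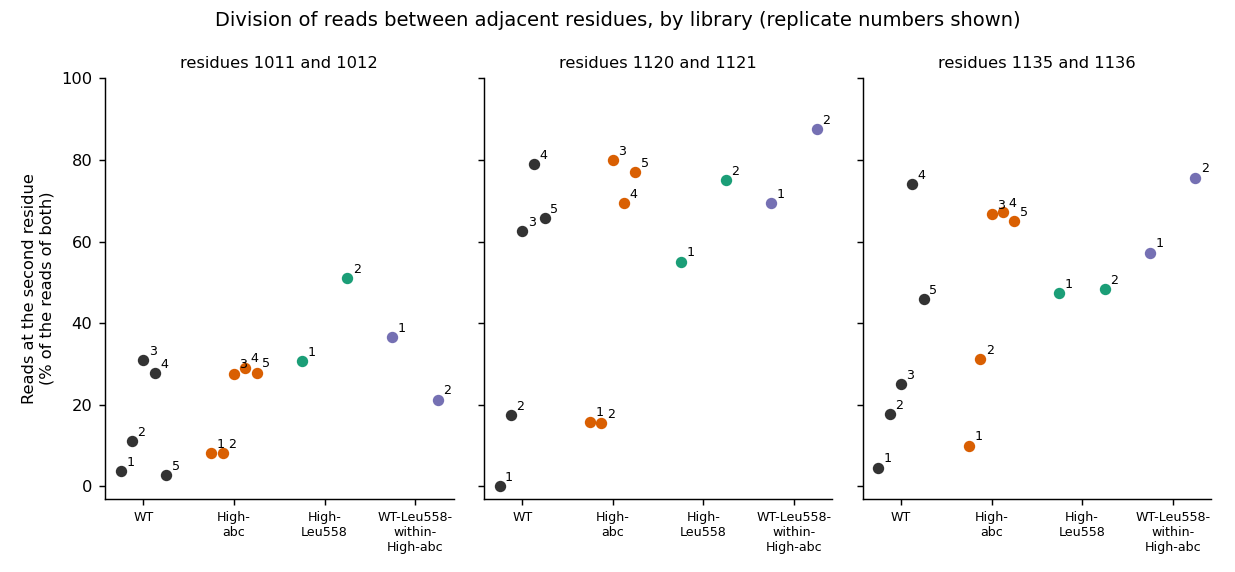
Part of the reads of 2 neighbouring residues that was assigned to the second of them, in percent, by library, at residues 1011 and 1012, 1120 and 1121, and 1135 and 1136. Points are libraries with replicate numbers, coloured by construct; replicates 1 and 2 of WT and High-abc lie low, as at residue 1121 with 0% and 17.5% for the WT libraries, and 15.9% and 15.6% in High-abc.

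Windows of 10 residues gave the same picture with more reads per value. Averaged over the 4 group means, occupancy of the 35 windows ranged from 0.332 to 2.94, with a median of 0.832, and 11 windows lay above 1. The 3 highest contained the 3 leading residues. Averaged over the 14 libraries instead, window 941 to 950 had an occupancy of 3.03, window 1071 to 1080 had 2.52 and window 1011 to 1020 had 2.59. On the same average the 3 lowest were window 1031 to 1040, at the end of helix 10, with 0.337, window 861 to 870, in helix 7, with 0.355, and window 1101 to 1110, at the start of helix 11, with 0.375. The highest value of any library in these 3 windows was 0.561. Window 1101 to 1110 held the only residue of the domain with no read in any library, residue 1108, between residue 1107 with 14 reads and residue 1109 with 35. With 132556 pooled reads, 0 reads allow a share of up to 0.00226%.

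The concentration of reads in peaks was compared with the first membrane-spanning domain by taking, for each library, the 10 residues most occupied in the 13 other libraries. These held 24.4% ± 5.53 of the reads of the second domain and 21.8% ± 3.48 of the reads of the first (SD, n = 14). The difference of 2.56 percentage points did not pass an exact sign-flip permutation test (p = 0.119, n = 14), and it was positive in 7 libraries and negative in 7. With 5 residues in place of 10 it was 6.45 points (exact sign-flip permutation p = 0.000488, n = 14), and with 20 residues it was 1.69 points (p = 0.282 by the same permutation test). Leaving out High-abc replicate 1 gave 4.30 points and leaving out High-abc replicate 5 gave 3.57, both with an exact permutation p under the threshold (0.0293 and 0.0437). These tests too take the libraries as independent, so their p-values may be too small.

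Changes at single residues and windows were tested with edgeR's quasi-likelihood test over the whole protein, with Benjamini-Hochberg adjustment over all features tested and a threshold of 0.05. The filter on low counts left 314 of 1440 residues, among them 70 of the 350 in the domain, which held 61.3% of its reads and include the 12 most occupied. All 144 windows were tested, 35 of them in the domain. Beyond counting error, the coefficient of variation between libraries of 1 group was 53.5% for a residue and 31.2% for a window.

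Between High-abc and WT no residue of the domain passed, where 0.637% of all residues tested did, and no window, where 0.694% of all windows did. In the domain 1 residue and 2 windows had an unadjusted p under 0.05, and DESeq2 also called none, with 1 residue and 2 windows under 0.05. By edgeR these were 1.43% of the domain's tested residues and 5.71% of its windows, against 5.10% and 3.47% over the whole protein. The median log2 change of the 70 residues was -0.03, against -0.04 over all 314, with 30 higher and 40 lower in High-abc. Residue 948 differed by a log2 change of -0.11 (SE 0.40), 1075 by 0.31 (SE 0.46) and 1011 by 0.03 (SE 0.49), and none passed the threshold. The 95% interval of residue 948 ran from -0.91 to 0.70, a range that holds changes in either direction. The fit did not use the replicate numbers. With the number as a block, no residue or window of the domain was called in this comparison either. In the comparisons with a group of 2, the block with all groups did call residues and windows of the domain. They are given in the closing section, and the numbers of those groups could not be checked.

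The window with the lowest p between High-abc and WT was 901 to 910, in the glycosylated loop. It held 0.397%, 0.394%, 0.203%, 0.381% and 0.289% of reads in High-abc and 0.294%, 0.15%, 0.151%, 0.259% and 0.206% in WT, replicates 1 to 5. High-abc was the higher of the same-numbered libraries in all 5 pairs, yet the groups overlapped. The log2 change was 0.73 (SE 0.28) with an adjusted p of 0.757 by edgeR's quasi-likelihood test with Benjamini-Hochberg adjustment. The residue with the lowest p was 857, at the start of helix 7, with 47 reads in WT and 7 in High-abc (log2 change -2.43, SE 1.04, adjusted p = 0.552 by the same edgeR test).

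Between High-Leu558 and WT no residue of the domain passed, where 0.318% of all residues did, and no window, where 0.694% of all windows did. Unadjusted, 2 residues and 1 window lay under 0.05, and DESeq2 called none, with 4 residues and 1 window under 0.05. By edgeR these were 2.86% of the domain's tested residues and 2.86% of its windows, against 3.50% and 3.47% over the whole protein. The median log2 change was -0.12 in the domain and -0.13 over all residues tested. Window 901 to 910 again had the lowest p, with 0.317% and 0.423% in High-Leu558, both above all WT libraries (log2 change 0.76, SE 0.34, edgeR adjusted p = 0.936). High-Leu558 and High-abc were compared with the same WT libraries. Without High-Leu558 replicate 2 the log2 change of that window was 0.47. At residue 1011 the log2 change was -1.39 (SE 0.69), with an adjusted p of 0.906 from edgeR, and it was -0.80 without High-Leu558 replicate 2 and -2.30 without replicate 1. The residue with the lowest p was 1169, after helix 12, at 0.0624% ± 0.00921 against 0.216% ± 0.0579 in WT with no overlap (log2 change -1.84, SE 0.72, edgeR adjusted p = 0.906).

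Between WT-Leu558-within-High-abc and High-abc no residue of the domain passed, where 0.637% of all residues did, and no window, where 0% of all windows did. Unadjusted, 3 residues and 1 window lay under 0.05, by edgeR and by DESeq2, which called none either. By edgeR these were 4.29% of the domain's tested residues and 2.86% of its windows, against 3.82% and 5.56% over the whole protein. The median log2 change of the domain's residues was -0.16, against -0.10 over all residues. Window 971 to 980, in the third cytosolic loop, had the lowest p. It held 0.332% and 0.680% of reads in WT-Leu558-within-High-abc, both above High-abc, whose libraries had 0.324%, 0.171%, 0.0812%, 0.205% and 0.289% (log2 change 1.12, SE 0.38, edgeR adjusted p = 0.703). Its lower library was close to the highest of High-abc, and without WT-Leu558-within-High-abc replicate 2 the log2 change was 0.56. Residue 1000 in helix 9 was the residue with the lowest p, with 47 reads against 22 (log2 change 1.76, SE 0.73, edgeR adjusted p = 0.988).

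Between WT-Leu558-within-High-abc and WT no residue and no window of the domain passed, where 0% of all residues and 0% of all windows did. Unadjusted, 2 residues and 3 windows lay under 0.05, by edgeR and by DESeq2. By edgeR these were 2.86% of the domain's tested residues and 8.57% of its windows, against 5.10% and 3.47% over the whole protein. Window 971 to 980 again had the lowest p, with 0.208%, 0.260%, 0.151%, 0.224% and 0.154% in WT (log2 change 1.22, SE 0.37, edgeR adjusted p = 0.528). Without WT-Leu558-within-High-abc replicate 2 it was 0.67. The WT-Leu558-within-High-abc libraries are the same in this comparison and the one before. Residue 953, in the third cytosolic loop, was the residue with the lowest p (log2 change -1.90, SE 0.84, edgeR adjusted p = 0.817), and its libraries overlapped.

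**Figure D5:**
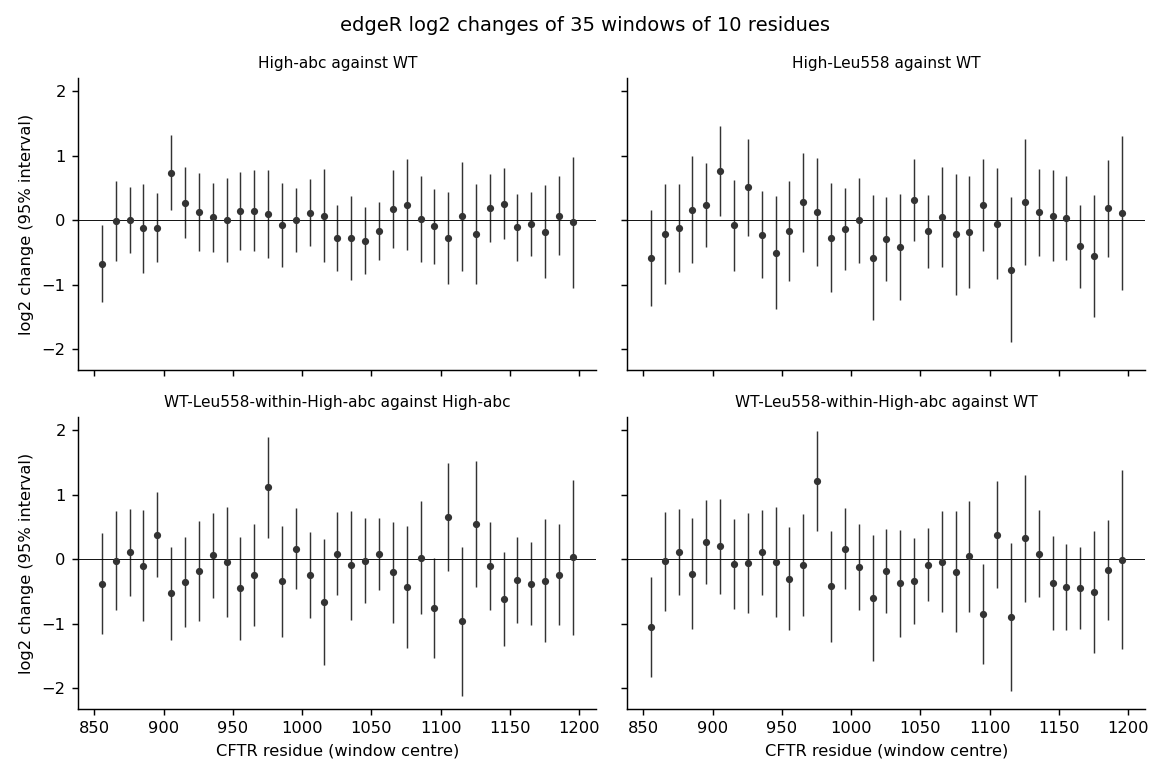
Log2 changes of the 35 windows of 10 residues in the 4 comparisons, from edgeR's fit of the whole protein, plotted at the window's centre with 95% intervals. No window passed the adjusted threshold; windows 901 to 910 (0.73 and 0.76 in the upper panels) and 971 to 980 (1.12 and 1.22 in the lower panels) have the lowest p.

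As a description across the 350 residues, which share the mRNA, the library and the rule that placed reads, profiles of the domain correlated about as well between WT and High-abc as within each. The median Spearman correlation was 0.474 among WT libraries (10 pairs), 0.515 among High-abc libraries (10 pairs) and 0.469 between WT and High-abc libraries of different replicate number (20 pairs). Between WT and High-abc libraries of the same number it was 0.606 (5 pairs). Libraries of different construct but of the same number were thus the more alike. Between the 2 groups of 2 the median was 0.676 (4 pairs), and over all 91 pairs it was 0.539, from 0.323 to 0.824. The lowest value was that of High-abc replicates 2 and 3, with 5837 and 2463 reads in all. Shallow libraries can have noisier profiles, and whether depth or replicate number lowered this value was not tested.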

How the data were processed

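Footprints were made with RNase I, and libraries by linker ligation, reverse transcription, circularization, rRNA depletion and PCR, per the labels' protocols. Per the file headers, the deposited files give for each CFTR residue a read count and its percent of the CFTR-mapped reads. The deposited percent equalled the share recomputed from the deposited counts within 0.0005, so only counts were used. HISAT2 and hg38 are named in the submitters' processing notes without a role or version. Not given in the sources used here are the mapped sequence, the read lengths and how a read was placed on a residue. A residue number is therefore the one the authors assigned. No molecular identifiers are mentioned, so limits from counts cover counting error only. No pair of libraries held identical values.

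The region, its segments and the rules for naming residues were chosen with earlier results of these data known. Named are the 12 residues with the highest mean of the group means, the 3 highest and 3 lowest windows, residues and windows past the threshold, those with the lowest p, residues with no read and the 8 segments. The neighbouring pairs, residue 1172 by library, and the single residues with the lowest p were picked after their values were seen. No protein sequence was used here.

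Shares were compared by exact two-sided permutation of library labels with scipy 1.17.1, numpy 2.4.6 and pandas 2.3.3 in Python 3.11.15, and the 90% interval holds the shifts that the test does not refuse. The Leu558 codon was tested by relabelling within each background (441 relabellings, smallest p 0.00227). Densities and the concentration in peaks were tested by exact sign flips over libraries. For residues and windows of 10 residues, without 20 residues at each end, the test was edgeR 4.0.16 (with limma 3.58.1 in R 4.3.3). All 14 libraries entered 1 quasi-likelihood fit with a term for each group, after filterByExpr and TMM scaling, and p-values were Benjamini-Hochberg adjusted. The scripts were tested on simulated data.

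Alternatives were DESeq2 1.42.0, library-total scaling, other filters, windows and boundaries, leaving out the 1% of residues with the most reads, fitting just the 2 groups compared, a replicate block, and each library left out. WT and High-abc libraries with the same number deviated together from their group means in each of 5 pairs (r between 0.371 and 0.536 over 314 residues, where pairs of different number had a median of -0.14). These numbers were therefore taken to pair them, and the pairing comes from the data and not from the labels. The main tests did not use the pairing, which entered only through the replicate block. The groups of 2 have too few pairs for this check.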

Additional observations from a re-analysis of the deposited data

Results flagged for a closer look

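Of 60 sets of 5 libraries examined, 2 held a library far from the other 4, and chance alone gives about 1 in 20. In High-abc replicate 2 the 10 most occupied residues held 36.6% of the domain's reads, where the other High-abc libraries had 21.9% to 26.2%. WT replicate 2, the deepest library, held 1.15% of its CFTR reads in the glycosylated loop, where the other WT libraries had 1.78% to 2.03%. WT replicate 2 also had the highest part of WT at the 10 most occupied residues, 35.3%.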

How the results depend on the processing

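Of 589 values recomputed for 40 results, 538 kept their direction and their side of the threshold. With the replicate number as a block, no residue or window of the domain was called between High-abc and WT. For the groups of 2, whose numbers could not be checked, the block with all groups gave 8 called residues and 4 called windows for High-Leu558 against WT. It called 9 residues and 6 windows in WT-Leu558-within-High-abc against High-abc, and 9 and 6 against WT. With the block and only the 2 groups compared, the residue counts were 5, 4 and 2, and the window counts 2 for High-Leu558 and 5 for WT-Leu558-within-High-abc, each against WT, and 0 for the latter against High-abc. The shares called over the whole protein under the block are not given here. The block counts therefore do not show whether calls were more frequent in the domain than elsewhere. With all groups, residues 953, 1011, 1120, 1121 and 1172 were called in all 3 of these comparisons. At the last 4 of them replicates 1 and 2, or 1 to 3, of WT and High-abc stood apart, and the cause was not tested. Under the block residue 1011 had log2 changes of -2.04, -1.98 and -1.87 in the 3 comparisons, in the order above.

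The domain's share became -0.0415 points for High-abc and 0.624 for High-Leu558 against WT, opposite in sign to the main values, when the most covered 1% of residues was left out. Leaving out a library in turn gave -0.666 to 0.789 and -2.05 to 0.892. The concentration of reads in peaks against the first membrane domain was 6.45 points with 5 residues, and 2.44 to 4.30 with a library left out. For residue 948 in High-abc against WT the log2 change turned to 0.030 with a mean of at least 20 reads, to 0.0099 with only the 2 groups and to 0.030 with those and the block. Without a filter it was -0.10 for residue 1011 in that comparison and 0.13 for residue 948 in WT-Leu558-within-High-abc against High-abc. With a library left out, the log2 change in High-abc against WT ran from -0.22 to 0.23 at residue 948, from -0.063 to 0.77 at 1075 and from -0.46 to 0.44 at 1011. In High-Leu558 against WT it ran from -0.48 to 0.13 at 1075. In WT-Leu558-within-High-abc it ran from -0.27 to 0.041 at 948 against High-abc, and against WT from -0.36 to 0.13 at 948 and from -0.73 to 0.015 at 1075. Where the values turned, the cause was not tested. Depth limits single residues: only 70 of the 350 in the domain passed the filter on low counts.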
